A study of Mus musculus with 24 samples.

Results

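Granulocyte-macrophage progenitors (GMP) whose Flt3 receptor gene carried an internal tandem duplication (Flt3-ITD) were compared between libraries labelled as lacking and as having the stress sensor IRE1α, in 6 of the 24 libraries of the series. The 3 libraries labelled IRE1_KO_ITD came from mice with floxed alleles of Ern1, the gene of IRE1α, the Cre recombinase under the Vav promoter, and Flt3-ITD. The 3 libraries labelled ITD came from mice with Flt3-ITD, for which the labels name neither floxed Ern1 nor Cre. Both groups share the C57BL/6 background, bone marrow as source and cell sorting. The labels give no age, sex, number of Flt3-ITD alleles or sorting markers for GMP, and do not say that the libraries of a group came from separate animals, so p-values measure the spread between libraries, which may be technical. Vav-Cre acts in blood cells in general, so the deletion is not restricted to GMP. For reference to the same genotypes elsewhere, 3 IRE1_KO GMP libraries (floxed Ern1 with Vav-Cre, no Flt3-ITD) and 3 WT GMP libraries were set beside them, and 3 IRE1_KO_ITD and 3 ITD libraries of LSK cells (lineage negative, Sca1 and cKit positive stem and progenitor cells). Of 23991 gene symbols, 10831 reached at least 1 FPKM (fragment counts scaled by transcript length and library size) in at least 3 of the 6 GMP libraries and were tested.

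IRE1α sits in the membrane of the endoplasmic reticulum (ER). When unfolded proteins collect there, its cytosolic part removes an intron from the mRNA of Xbp1, and the spliced mRNA encodes a transcription factor that raises genes for moving proteins into the ER, folding them, adding sugars and sending them on. GMP are the bone marrow progenitors of granulocytes and monocytes, and they make large amounts of secreted and granule proteins. Flt3-ITD is a recurrent mutation of acute myeloid leukaemia that makes the FLT3 receptor signal without its ligand.

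In IRE1_KO_ITD GMP many genes of the secretory pathway were lower than in ITD GMP: the COPII coat gene Sec24d by 3.17 ± 0.30 log2 units, the translocon subunit Sec61b to 291 ± 8.46 FPKM against 621 ± 26.8 FPKM, and the disulfide isomerase P4hb to 252 ± 18.1 FPKM against 526 ± 76.3 FPKM (SD, n = 3 libraries each). Genes of antigen presentation by MHC class II and their activator Ciita were lower as well, H2-Ab1 by 3.30 ± 0.45 log2 units. Akr1c12 and Akr1c13 (aldo-keto reductases), Cyp11a1 (the cholesterol side chain cleavage enzyme) and Scin (an actin-severing protein) were among the genes that stood higher. Granule protein genes that define GMP, such as Mpo and Elane, did not pass the test. A gene is said below to have risen or fallen where the moderated test of limma, fitted on log2(FPKM + 1) over the 12 GMP libraries, gave an adjusted p under 0.05. The ± after a log2 fold change is the standard error of that fit with n = 3 libraries each, and this scale understates the change of low genes.

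All 6 libraries read as GMP. Mpo (myeloperoxidase) stood at 8223 to 8884 FPKM in IRE1_KO_ITD and at 7265 to 9692 FPKM in ITD, and Elane (neutrophil elastase) at 5530 to 6994 FPKM in IRE1_KO_ITD and at 5418 to 7471 FPKM in ITD. The stem cell genes Hlf, Mecom and Procr reached at most 1.08 FPKM in any of the 6, and the T cell gene Cd3e at most 0.0252 FPKM. FPKM summed to between 573592 and 673177 per library, and from 10686 to 10831 genes reached 1 FPKM. No read totals were at hand. Ratios of low values put the depth of the other libraries at 0.940 to 0.999 times that of ITD replicate 1, and no 2 libraries held identical values. Sex and genotype are unbalanced: by Xist and Y-linked genes the 3 ITD libraries were female, against 1 female (replicate 2) and 2 male IRE1_KO_ITD libraries. ITD replicate 1 stood apart from its group, with correlations of 0.938 and 0.947 to the other two, which correlated at 0.969 with each other. Genes of late neutrophil maturation summed to 17103, 6873 and 2321 FPKM in the IRE1_KO_ITD libraries and to 3298, 100020 and 41200 FPKM in the ITD libraries, so that ITD replicate 1 lies within the range of IRE1_KO_ITD.

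Across all genes tested, 114 rose and 108 fell, 222 in all or 2.05% (1.05% rose and 0.997% fell), and 1992 genes (18.4%) had an unadjusted p under 0.05. The median log2 fold change of all genes was 0.08. The count depends on single libraries: it was 46, 137 and 133 without IRE1_KO_ITD replicates 1, 2 and 3, and 812 (7.5%), 84 and 31 without ITD replicates 1, 2 and 3. With sex as a covariate 21 genes passed (0.194%), 4 higher and 17 lower, and each of the 21 was among the 222. The part of sex in these changes was not tested further. On chromosome X lie 11 of the called genes (4.96%), against 3.02% of all genes tested, and no gene of chromosome Y was tested. A gene under 1 FPKM in all 3 libraries of a group passed the filter only through the other group, which alone keeps the groups from overlapping. This holds for 25 of the 108 genes that fell, among them Sec24d, Creb3l2, Ciita, Bhlha15, Zbtb46, Clec9a and Slamf7. It holds for 11 of the 114 that rose, Sva among them, so the lack of overlap in all of these is no result.

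**Figure D1:**
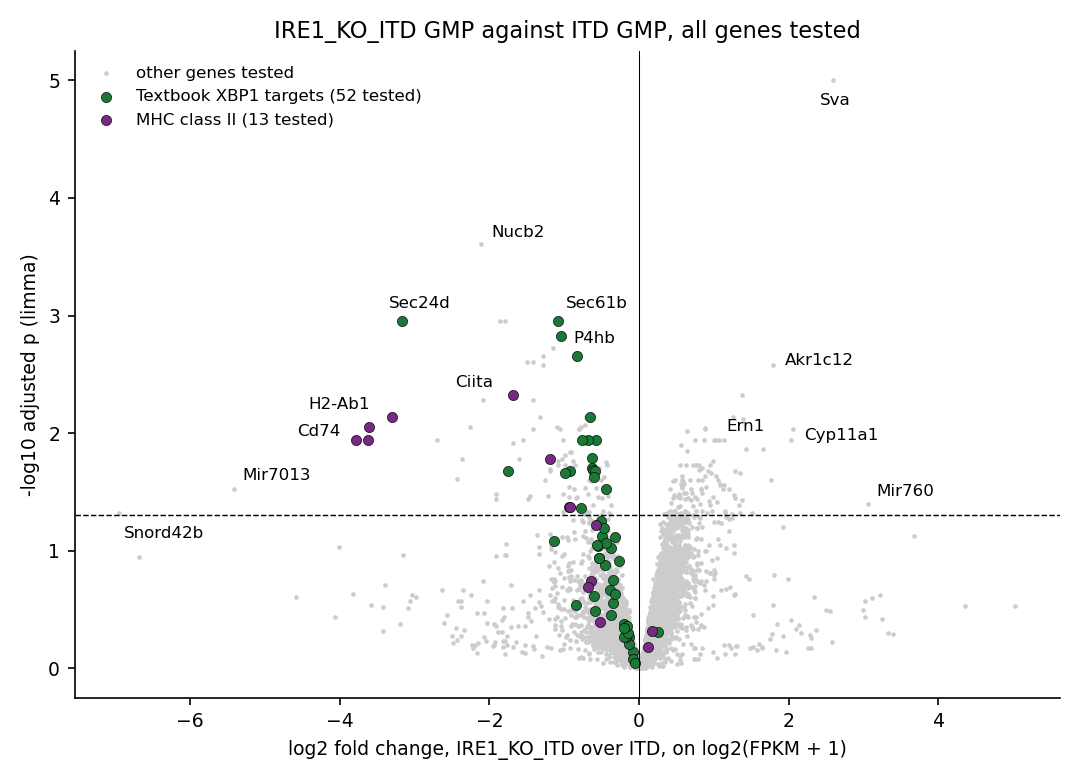
Log2 fold change of IRE1_KO_ITD over ITD in GMP (x) against -log10 of the limma adjusted p (y) for each gene tested; the dashed line marks an adjusted p of 0.05. The textbook XBP1 targets and MHC class II genes past the line lie on the lower (left) side, with 19 and 7 called members.

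Ern1, the targeted gene (chromosome 11, 106397620 to 106487796, GRCm38), was read at 26.6, 28.5 and 33.2 FPKM in IRE1_KO_ITD and 13.9, 11.8 and 16.0 FPKM in ITD. The libraries labelled as knockout were the higher ones, without overlap, and Ern1 rose by 1.03 ± 0.16 log2 units (limma adjusted p = 0.0114). Since the files hold 1 value for the whole gene and none by exon, the deletion itself cannot be checked here, and every direction below is that of the labels. Xbp1 stood at 125, 182 and 180 FPKM in IRE1_KO_ITD and at 127, 87.2 and 94.8 FPKM in ITD, with overlap and a limma adjusted p of 0.0893, and these values do not tell the spliced from the unspliced mRNA. Sva (seminal vesicle antigen) had 6.23, 5.13 and 4.25 FPKM in IRE1_KO_ITD, against 0, 0 and 0.0692 FPKM in ITD (limma adjusted p = 9.97e-06), the smallest p of all genes. It passed the filter only through IRE1_KO_ITD, so its lack of overlap is no result. Sva stood at 5.69 ± 0.823 FPKM in IRE1_KO GMP and was listed at 0 in WT GMP, so it followed the Ern1 label without Flt3-ITD too.

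Of the sensors and transcription factors of the unfolded protein response, 28 were tested, 1 rose (Ern1) and 1 fell, against 2.05% of all genes called. The one that fell, Creb3l2, encodes a membrane-bound transcription factor of the CREB3 family. Creb3l2 stood at 0.440, 0.351 and 0.358 FPKM in IRE1_KO_ITD and at 2.23, 2.05 and 2.88 FPKM in ITD, a fall by 1.29 ± 0.14 log2 units (limma adjusted p = 0.00220). It too passed the filter only through ITD. The other sensors gave no call: Eif2ak3, which encodes the kinase PERK, had a log2 fold change of -0.51 ± 0.23 and Atf6 one of -0.27 ± 0.15. Atf4 and Ddit3, the transcription factors downstream of PERK, stood at -0.23 ± 0.19 and -0.09 ± 0.28. Of the ATF4 and integrated stress response targets, 0 of 37 tested members passed, with a median log2 fold change of 0.12, and the 2 most abundant, Shmt2 and Phgdh, stood at 0.13 ± 0.24 and 0.35 ± 0.21. Of the mRNAs reported to be cut by IRE1, 0 of 7 tested passed, and the 2 most abundant, Bloc1s1 and Tapbp, stood at 0.27 ± 0.11 and -0.23 ± 0.11. The gene lists are broader than the responses they are named for, and a missed threshold does not show that a gene was equal in both groups.

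Genes that textbooks name as XBP1 targets were lower in part. Of 52 tested, 19 fell and 0 rose, against 0.997% of all genes that fell, and their median log2 fold change was -0.52, against 0.08 over all genes. In 35 of the 52, all 3 IRE1_KO_ITD libraries lay below all 3 ITD libraries, a pattern seen in 5.27% of all genes and in Sec24d set by the filter, and 0 of the 52 showed the opposite pattern, seen in 14.6%. The number that passed was 6, 13 and 12 without IRE1_KO_ITD replicates 1, 2 and 3, and 20, 18 and 5 without ITD replicates 1, 2 and 3. It was 5 with sex as a covariate and 2 with only the groups compared. Left without a call were 33 members, among them the co-chaperone Dnajb9 at -0.84 ± 0.40, with overlap, and Derl3 at 0.26 ± 0.19.

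Sec24d, which encodes a cargo-selecting subunit of the COPII coat of vesicles leaving the ER, had the lowest log2 fold change of these targets. It stood at 0.691, 0.954 and 0.338 FPKM in IRE1_KO_ITD and at 22, 11.0 and 10.7 FPKM in ITD. Sec24d passed the filter only through ITD, which alone keeps the groups from overlapping. The log2 fold change was -3.17 ± 0.30 (limma adjusted p = 0.00111). Other transport genes fell by less. Surf4, which encodes a cargo receptor of the same vesicles, stood at 82.1, 80.8 and 81.5 FPKM against 144, 113 and 148 FPKM in ITD (-0.71 ± 0.10), and Cope, a COPI coat subunit, at 172, 172 and 184 FPKM against 365, 255 and 309 FPKM in ITD (-0.80 ± 0.12). The p24 cargo proteins Tmed3 and Tmed10 had log2 fold changes of -0.54 ± 0.09 and -0.41 ± 0.08. With the retrieval receptor gene Kdelr2, 6 of 78 tested genes of COPII and COPI transport fell and 0 rose, against 0.997% of all genes that fell. The median was -0.11. The count ran from 2 without ITD replicate 3 to 8 without ITD replicate 1, with 4, 3 and 4 without IRE1_KO_ITD replicates 1, 2 and 3 and 4 without ITD replicate 2. It was 1 (Sec24d) with sex as a covariate and 1 with only the groups compared.

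Entry into the ER is the first step of the pathway. Of 30 tested genes of signal recognition and translocation, 8 fell and 0 rose, against 0.997% of all genes that fell. Their median log2 fold change was -0.39. Sec61b, a subunit of the Sec61 channel, stood at 282, 299 and 292 FPKM in IRE1_KO_ITD and at 641, 631 and 590 FPKM in ITD. The 3 values of a group lay close together, the groups did not overlap, and the log2 fold change was -1.09 ± 0.11 (limma adjusted p = 0.00111). The channel subunits Sec61a1 and Sec61g fell by 0.92 ± 0.17 and 0.99 ± 0.18 log2 units. Serp1, which encodes a protein associated with the translocon under stress, stood at 138, 147 and 123 FPKM against 261, 227 and 237 FPKM in ITD (-0.82 ± 0.09). Tram1, Spcs2 (a signal peptidase subunit) and the translocon-associated Ssr2 and Ssr3 completed the 8, at -0.68 ± 0.11, -0.58 ± 0.09, -0.63 ± 0.11 and -0.62 ± 0.11. Of the 8, 3, 7 and 6 passed without IRE1_KO_ITD replicates 1, 2 and 3, and 8, 8 and 2 without ITD replicates 1, 2 and 3. With sex as a covariate 2 passed, and with only the groups compared 1.

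Folding and sugar addition showed the same direction in a smaller share, against 0.997% of all genes that fell. Of 39 tested chaperone and disulfide isomerase genes, 7 fell and 0 rose (median -0.17). P4hb, the main protein disulfide isomerase, stood at 239, 246 and 273 FPKM in IRE1_KO_ITD and at 594, 444 and 539 FPKM in ITD, with no overlap and a log2 fold change of -1.05 ± 0.11 (limma adjusted p = 0.00150). Fkbp11, a prolyl isomerase of secretory cells, stood at 9.62, 15.6 and 9.12 FPKM against 65.1, 29.3 and 32.8 FPKM in ITD, where replicate 1 was the highest (-1.75 ± 0.31). Fkbp2 and Ppib, both prolyl isomerases, had log2 fold changes of -0.66 ± 0.09 and -0.43 ± 0.08, and the co-chaperone Dnajc3 one of -0.62 ± 0.11. The abundant chaperones Hspa5 (BiP), Hsp90b1 and Calr did not pass, at -0.06 ± 0.18, 0.21 ± 0.15 and 0.34 ± 0.12, and were named after their values were seen. Of 46 tested N-glycosylation genes, 6 fell and 0 rose (median -0.06): Stt3a, Ddost, Dad1 and Ostc of the oligosaccharyltransferase, Mgat2 of the Golgi and Uap1, which makes the sugar donor. Their log2 fold changes ran from -0.88 ± 0.15 in Mgat2 to -0.44 ± 0.08 in Dad1. Of 38 tested genes of ER-associated degradation, 4 fell and 0 rose (median -0.15), with Vimp at -0.60 ± 0.11, Herpud1 at -0.45 ± 0.09, the ubiquitin ligase gene Rnf5 at -0.37 ± 0.08 and Edem2 at -0.77 ± 0.17. Without IRE1_KO_ITD replicate 1, 2 chaperone, 0 glycosylation and 0 degradation genes passed, and without ITD replicate 3 the counts were 2, 1 and 0. They were 5, 3 and 1 without IRE1_KO_ITD replicate 2, 5, 5 and 0 without IRE1_KO_ITD replicate 3, 8, 6 and 4 without ITD replicate 1, and 6, 3 and 3 without ITD replicate 2. With sex as a covariate 2 chaperone, 0 glycosylation and 0 degradation genes passed, and with only the groups compared 0 of each.

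**Figure D2:**
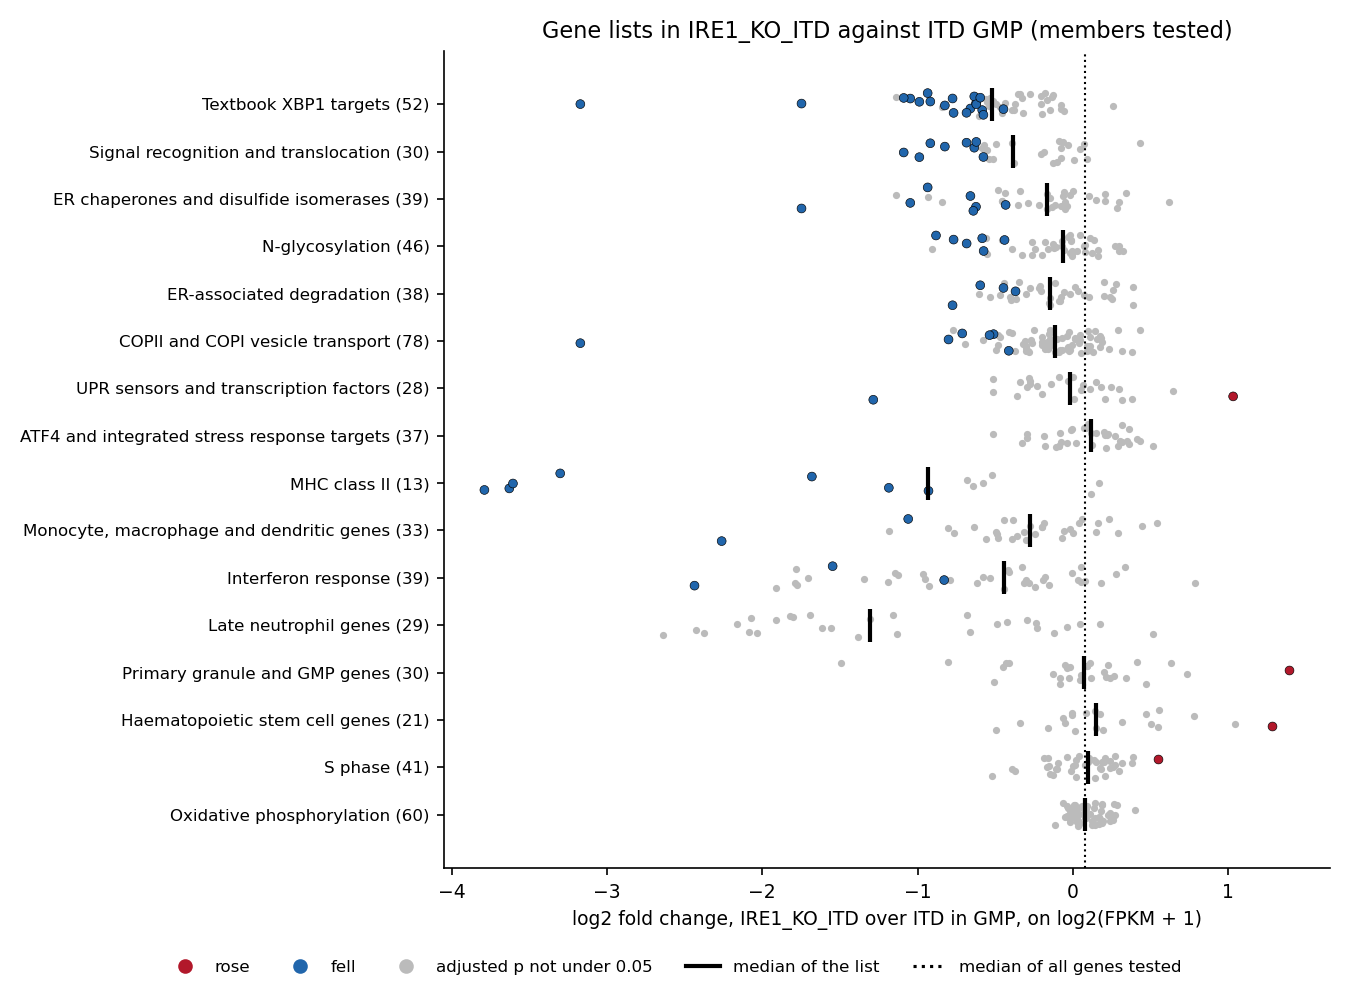
Log2 fold change of IRE1_KO_ITD over ITD in GMP (x) for the tested members of 16 gene lists (rows), with called members in colour, the list's median as a bar and the median of all genes, 0.08, as a dotted line. The secretory pathway lists and MHC class II hold called members only on the lower side, and the bar of the late neutrophil genes lies at -1.31 with no called member.

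Nucb2, which encodes the calcium-binding protein nucleobindin of the Golgi and ER, had the smallest p among the genes that fell. It stood at 5.18, 4.21 and 5.41 FPKM in IRE1_KO_ITD and at 19.7, 27.7 and 27.2 FPKM in ITD. The groups did not overlap, with a log2 fold change of -2.11 ± 0.16 (limma adjusted p = 0.000245), and Nucb2 passed without each library in turn and with sex as a covariate. Of the 222 genes, 27 passed in all 6 fits that left out 1 library. The 21 lower ones hold the secretory genes Sec24d, Sec61b, P4hb, Serp1, Fkbp2, Surf4, Creb3l2, Nucb2 and Itm2c, the transcription factor gene Bhlha15, and Ciita, H2-Ab1, Batf3, Clec9a, Slamf7, Slamf8, Scimp, Mycl, Amica1, Snx22 and Cyp27a1. The 6 higher ones were Ern1, Sva, Akr1c12, Akr1c13, Dmkn and Ehd3. These 27 were chosen by their stability after the values were seen. Bhlha15 encodes MIST1, a transcription factor of secretory cells, and is itself known as an XBP1 target. It stood at 0.0832, 0 and 0 FPKM in IRE1_KO_ITD and at 6.68, 2.01 and 2.62 FPKM in ITD, with a log2 fold change of -2.09 ± 0.27 (limma adjusted p = 0.00526). Bhlha15 passed the filter only through ITD, which alone keeps the groups from overlapping.

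The promoters of the called targets were read for the letters that XBP1 and its partners are known to bind, since these genes moved together. Sequences are from RefSeq, build GRCm38.p6 (mm10 coordinates), 250 bases before to 50 after the start of the gene, 5′ to 3′ on the strand of the gene, and the 4 shown are the 3 with a CCACGT match among the 6 called targets of smallest p that have an entry, with Sec61b as one that holds none of the motifs searched. Sec24d (chr3:123267246-123267545, plus strand), capitals marking TGACGTGG, which starts 26 bases before the gene's start. P4hb (chr11:120573204-120573503, minus strand) and Serp1 (chr3:58525835-58526134, minus strand), capitals marking CCACG or CCACGT. Sec61b (chr4:47474411-47474710, plus strand), no capitals.
Sec24d: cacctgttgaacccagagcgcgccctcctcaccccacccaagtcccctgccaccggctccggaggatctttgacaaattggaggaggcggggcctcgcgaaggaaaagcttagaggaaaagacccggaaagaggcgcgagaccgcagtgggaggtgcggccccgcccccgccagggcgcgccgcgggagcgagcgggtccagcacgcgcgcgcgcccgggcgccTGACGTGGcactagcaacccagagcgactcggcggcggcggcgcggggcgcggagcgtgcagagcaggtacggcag
P4hb: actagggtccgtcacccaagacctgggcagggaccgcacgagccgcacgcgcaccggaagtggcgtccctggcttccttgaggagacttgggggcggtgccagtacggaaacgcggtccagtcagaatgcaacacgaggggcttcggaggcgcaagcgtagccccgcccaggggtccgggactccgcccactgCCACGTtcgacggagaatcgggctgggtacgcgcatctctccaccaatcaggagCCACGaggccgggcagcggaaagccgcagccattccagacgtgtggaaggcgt
Serp1: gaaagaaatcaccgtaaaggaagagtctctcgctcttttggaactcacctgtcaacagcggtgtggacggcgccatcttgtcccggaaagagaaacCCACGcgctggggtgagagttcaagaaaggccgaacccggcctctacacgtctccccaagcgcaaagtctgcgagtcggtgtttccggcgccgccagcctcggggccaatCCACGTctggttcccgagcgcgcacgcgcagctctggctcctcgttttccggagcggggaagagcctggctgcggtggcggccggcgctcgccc
Sec61b: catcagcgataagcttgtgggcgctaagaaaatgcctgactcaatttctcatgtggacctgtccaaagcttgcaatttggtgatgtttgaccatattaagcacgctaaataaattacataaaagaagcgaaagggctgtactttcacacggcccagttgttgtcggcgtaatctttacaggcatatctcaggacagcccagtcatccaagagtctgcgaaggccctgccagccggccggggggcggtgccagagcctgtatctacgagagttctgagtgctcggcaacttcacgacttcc
The motifs were searched on both strands: ERSE (CCAAT, 9 bases of any kind, CCACG), ERSE-II (ATTGG, 1 base of any kind, CCACG), UPRE (TGACGTGG), the core CCACGT and the box CCACG, which lies inside ERSE, ERSE-II and the core, while UPRE read on the other strand holds CCACGT. UPRE occurred in 164 of 27025 promoters of this length (0.607%), CCACGT in 2249 (8.32%), CCACG in 8833 (32.7%), ERSE in 35 (0.130%) and ERSE-II in 10 (0.0370%). Among 8074 promoters of genes tested here the shares were 0.879% for UPRE, 12.04% for CCACGT, 48.6% for CCACG, 0.198% for ERSE and 0.0743% for ERSE-II. The core CCACGT occurred in 7 of 14 promoters of called targets with an entry and in 11 of 26 promoters of the other targets, so its presence did not set the called ones apart by count. The promoter of Spcs2 held only a CCACG box and that of Fkbp2 held none of the motifs. A match of letters is not a site of binding.

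MHC class II genes encode proteins that display peptides from endocytosed material to T cells. Of 13 tested, 7 fell and 0 rose, against 0.997% of all genes that fell, with a median log2 fold change of -0.93. In 9 all IRE1_KO_ITD libraries lay below all ITD libraries, in Ciita through the filter, against 5.27% of all genes. The summed FPKM of the list was 268, 486 and 203 in IRE1_KO_ITD and 1557, 1806 and 2698 in ITD, without overlap, and the ratio of the means was 0.158. IRE1_KO and WT GMP stood at 152 to 277 and 165 to 242, so the ITD libraries were the high ones. In bulk RNA, fewer cells of a type and less RNA per cell cannot be told apart.

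H2-Ab1, the β chain of the I-A molecule, stood at 40.2, 90.6 and 26.9 FPKM in IRE1_KO_ITD and at 390, 405 and 635 FPKM in ITD (limma adjusted p = 0.00728). H2-Aa, the α chain, stood at 18.8, 56.9 and 12 FPKM against 211, 313 and 424 FPKM in ITD, a log2 fold change of -3.63 ± 0.56. Cd74, the invariant chain, stood at 49.0, 146 and 27.9 FPKM against 643, 740 and 1178 FPKM in ITD (-3.79 ± 0.59). In each of these the female IRE1_KO_ITD replicate 2 was the highest of its group and still below the lowest ITD library. It lay below all 3 ITD libraries in each of the 108 genes that fell, against 17.4% of all genes tested. Since the 108 were called from these same libraries, this is no separate result on sex, whose part was not tested. Ciita, the transcription factor that switches these genes on, stood at 0.279, 0.201 and 0.131 FPKM in IRE1_KO_ITD and at 2.98, 1.96 and 3.87 FPKM in ITD (-1.68 ± 0.21, limma adjusted p = 0.00475). H2-Eb1 (-3.61 ± 0.51) and the peptide editor genes H2-DMb1 (-1.18 ± 0.20) and H2-DMb2 (-0.93 ± 0.20) completed the 7, while the regulators Rfx5 and Rfxank, which most cells express, did not pass at 0.17 ± 0.12 and 0.12 ± 0.13. The class II count was 3, 7 and 6 without IRE1_KO_ITD replicates 1, 2 and 3, 9, 6 and 2 without ITD replicates 1, 2 and 3, and 1 (Ciita) with sex as a covariate, and 0 with only the groups compared. Genes of this complex are similar in sequence, and how reads shared between them were counted is not known here.

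A few genes known from dendritic cells fell too. Batf3, a transcription factor of cross-presenting dendritic cells, stood at 0.119, 1.62 and 0.518 FPKM in IRE1_KO_ITD and at 5.06, 5.76 and 11.0 FPKM in ITD (-2.26 ± 0.32), and Zbtb46 at 0.218, 0.440 and 0.0619 FPKM against 1.77, 1.04 and 1.99 FPKM in ITD (-1.06 ± 0.15). Clec9a, a receptor of the same cells, stood at 0.222, 0.539 and 0.0780 FPKM against 1.75, 1.99 and 2.56 FPKM in ITD. Zbtb46 and Clec9a were low in every library. Both passed the filter only through ITD, which alone keeps the groups from overlapping. Xcr1, a chemokine receptor of the same cells, stood at 0.408, 0.814 and 0.2 FPKM in IRE1_KO_ITD and at 1.72, 1.33 and 0.795 FPKM in ITD. It missed the filter and was not tested, so its overlap cannot be set against the lack of overlap in Zbtb46 and Clec9a. Of 33 tested genes of monocytes, macrophages and dendritic cells, a list without Clec9a, 2 fell (Batf3 and Zbtb46) and 0 rose. With sex as a covariate 0 of the 33 passed, and with only the groups compared 0. Over all genes 0.997% fell, and the median of this list was -0.27. The list summed to 5325 to 9890 FPKM in IRE1_KO_ITD and 5533 to 9689 FPKM in ITD. Itgax stood at 0.394, 0.564 and 0.211 FPKM against 0.4, 0.559 and 1.30 FPKM in ITD, and the plasmacytoid gene Siglech at no more than 0.285 FPKM in the 6 libraries. B cells carry MHC class II too. Of 22 B cell genes 5 were tested and 0 passed, and all 5 had a negative log2 fold change (median -0.20). In 3 all IRE1_KO_ITD libraries lay below all ITD libraries, in 1 of these through the filter. That pattern was seen in 5.27% of all genes. The list summed to 146 to 160 FPKM in IRE1_KO_ITD and 157 to 181 FPKM in ITD, and its surface marker gene Ms4a1 reached at most 0.202 FPKM. The part of dendritic cells and B cells in the class II values was not tested.

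Further genes with the lowest log2 fold changes were Plbd1 (-2.71 ± 0.42), a phospholipase-like gene, Ckb (-2.37 ± 0.40), creatine kinase B, Rnase6 (-1.92 ± 0.38) and Cyp27a1 (-1.85 ± 0.18), a sterol hydroxylase. Plbd1 stood at 8.37, 13.1 and 4.74 FPKM in IRE1_KO_ITD and at 44.2, 61.9 and 72.8 FPKM in ITD. Cyp27a1 stood at 2.76, 2.68 and 1.36 FPKM against 9.33, 10.1 and 12.4 FPKM in ITD. Neither gene overlapped between the groups, and Cyp27a1 passed in all 6 fits without 1 library while Plbd1 passed in 4. Id2, an inhibitor of E proteins, stood at 25.8, 30.6 and 13.9 FPKM against 60, 98.0 and 110 FPKM in ITD (-1.91 ± 0.40, limma adjusted p = 0.0364), and passed in 1 of the 6. Among the 15 lowest were 2 short loci, Snord42b and Mir7013, which were listed at 0 in the 3 IRE1_KO_ITD libraries and stood at 86.3 to 244 FPKM and 31.6 to 67.3 FPKM in ITD. Mir760 was listed at 0 in the 3 ITD libraries and at 11.8, 5.74 and 5.70 FPKM in IRE1_KO_ITD. All 3 are short loci, whose FPKM is divided by a small length, and no fold is given.

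Interferon response genes had a median of -0.44, with 3 of 39 tested lower and 0 higher: Irf7, a transcription factor of the response, Isg20, an exonuclease, and Bst2 (tetherin). Over all genes 0.997% fell. Irf7 stood at 1.39, 2.28 and 0.641 FPKM in IRE1_KO_ITD and at 4.47, 19.1 and 17.5 FPKM in ITD (-2.44 ± 0.45, limma adjusted p = 0.0244). ITD replicate 1 was the lowest of its group, and without it 22 members of the list passed, against 7.5% of all genes. Without the other libraries 1, 2 and 1 passed (IRE1_KO_ITD replicates 1, 2 and 3), and 1 and 0 (ITD replicates 2 and 3). With sex as a covariate 0 of the 39 passed, and with only the groups compared 0. Isg20 and Bst2 had log2 fold changes of -1.55 ± 0.24 and -0.83 ± 0.17. In MHC class I and peptide loading, 1 of 25 tested fell, H2-M3 at -0.71 ± 0.15, and the abundant B2m and H2-D1 stood at -0.27 ± 0.15 and -0.28 ± 0.11.

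Among the genes that rose, Akr1c12 stood at 40.2, 29.9 and 28.3 FPKM in IRE1_KO_ITD and at 11.4, 7.16 and 7.99 FPKM in ITD (1.79 ± 0.21, limma adjusted p = 0.00263). Akr1c13, its near copy, stood at 90.7, 73.4 and 67.4 FPKM against 34.0, 27.9 and 25.1 FPKM in ITD (1.38 ± 0.17). Both passed without each library in turn and did not overlap, but reads may be shared between the copies. Dmkn, which encodes the secreted protein dermokine, stood at 143, 125 and 87.4 FPKM against 47.1, 43.0 and 40.6 FPKM in ITD (1.40 ± 0.19). It was the 1 riser among 30 tested primary granule and GMP genes, against 1.05% of all genes that rose. Scin stood at 16.9, 12.4 and 10 FPKM against 4.03, 1.62 and 1.76 FPKM in ITD (2.06 ± 0.30), and Cyp11a1 at 16.5, 13.9 and 12.9 FPKM against 3.91, 1.93 and 2.63 FPKM in ITD (2.04 ± 0.31). Scin passed in 5 and Cyp11a1 in 4 of the 6 fits without 1 library.

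Other risers were weaker against the loss of a library. Stap2 (1.77 ± 0.33), Dkkl1 (1.51 ± 0.34), Ndrg2 (1.43 ± 0.23), Serpina3g (1.37 ± 0.29), Lck (1.35 ± 0.24), Ctla2b (1.35 ± 0.30), Serpina3f (1.34 ± 0.28) and Mycn (1.28 ± 0.26) each passed in 1 to 3 of the 6, and Serpina3f and Serpina3g belong to a family of near copies. For Stap2, an adaptor of signalling receptors, the libraries stood at 8.87, 10.7 and 9.05 FPKM against 4.58, 1.61 and 1.01 FPKM in ITD. Mycn, a MYC family transcription factor, stood at 5.38, 4.93 and 4.92 FPKM against 2.82, 1.15 and 0.897 FPKM in ITD. In both genes ITD replicate 1 was the highest of its group, as it was in Serpina3g, at 97.3 FPKM against 49.5 and 40.5 FPKM. Of the 15 genes named for the highest fold changes, 5, 9 and 7 passed without IRE1_KO_ITD replicates 1, 2 and 3, 15, 6 and 4 without ITD replicates 1, 2 and 3, and 3 with sex as a covariate.

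**Figure D3:**
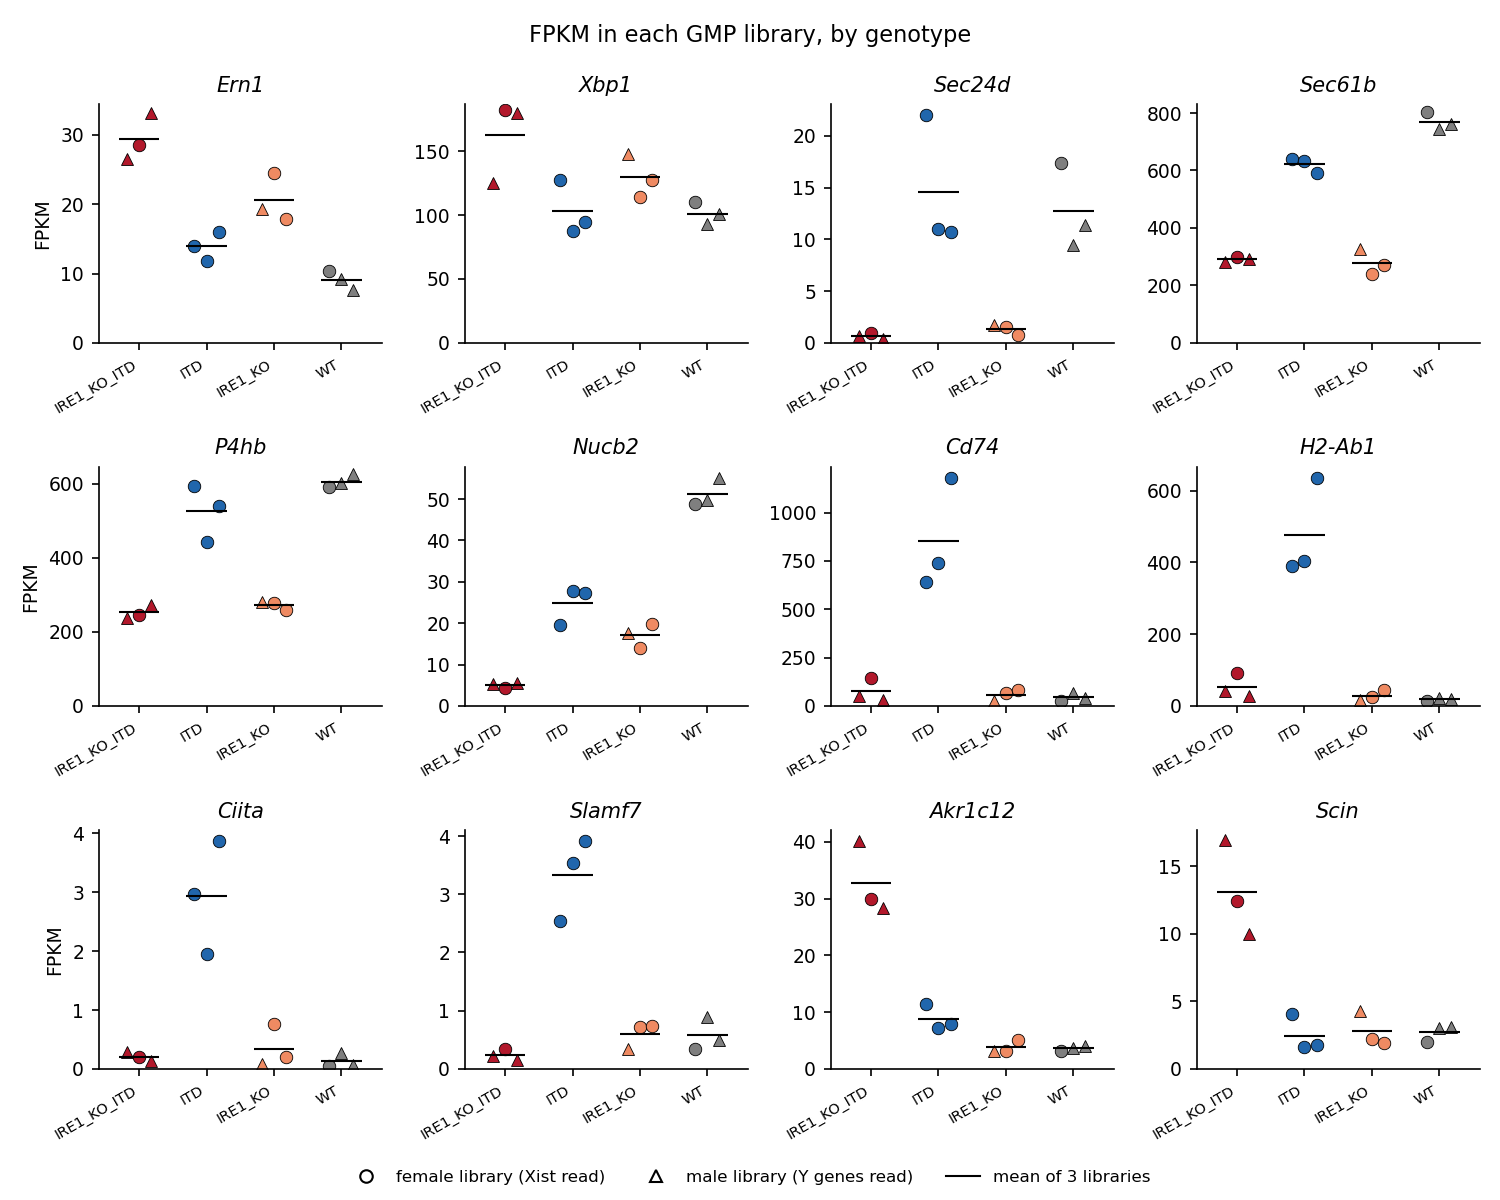
FPKM (y, from 0) of 12 genes in each of the 12 GMP libraries by genotype (x), with circles for female and triangles for male libraries and a line at the mean of 3. Sec24d, Sec61b and P4hb are low in both genotypes labelled IRE1_KO, Cd74, H2-Ab1, Ciita and Slamf7 are highest in the 3 ITD libraries, and Akr1c12 and Scin are highest in the 3 IRE1_KO_ITD libraries.

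Of all genes 2.05% were called (1.05% rose and 0.997% fell). Most lists of differentiation and proliferation genes held 0 or 1 call, near that share. Of 29 tested late neutrophil genes 0 passed, although their median log2 fold change was -1.31: S100a8 stood at 7633, 3014 and 682 FPKM in IRE1_KO_ITD and at 1146, 51553 and 18338 FPKM in ITD. Without ITD replicate 1, 18 of the 29 passed, against 7.5% of all genes. The same library and IRE1_KO_ITD replicate 3 were low in the immediate early gene Fos, at 177 and 130 FPKM, while the other 4 libraries stood at 828 to 1216 FPKM, and in Dusp1, at 85.6 and 59.3 FPKM against 200 to 344 FPKM. Prg2, the major basic protein of eosinophils, stood at 11.4, 12.2 and 2.49 FPKM in IRE1_KO_ITD and at 2.95, 336 and 251 FPKM in ITD, and 0 of 13 tested basophil, mast cell and eosinophil genes passed. The primary granule and GMP list had a median of 0.07. Of the haematopoietic stem cell genes 1 of 21 rose (Mycn), and the list summed to 3104, 3675 and 3256 FPKM in IRE1_KO_ITD against 2941, 1997 and 1722 FPKM in ITD, most of it from Ifitm1 (0.78 ± 0.28, limma adjusted p = 0.18). Flt3 and Kit stood at 0.37 ± 0.44 and 0.31 ± 0.14, and Flt3 at 20.2, 25.5 and 28.5 FPKM against 32.7, 14.8 and 13.5 FPKM in ITD, with overlap.

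The counts that follow stand against 1.05% of all genes that rose and 0.997% that fell, and 0 or 1 call in most of these lists is near that share. Of the STAT5 and FLT3 output genes 1 of 26 fell (Id2) and of the ERK output genes 0 of 16 passed, with Myc at 0.28 ± 0.26. Of the S phase genes 1 of 41 rose (Pola1, 0.55 ± 0.10, limma adjusted p = 0.0188), and of the G2 and M phase genes 0 of 39 passed, with Ube2c at -0.29 ± 0.20. Of the apoptosis and p53 targets 1 of 27 rose (Ccng1, 0.53 ± 0.12), and Bax and Bid stood at 0.06 ± 0.13 and -0.06 ± 0.10. Of the NRF2 antioxidant genes 2 of 24 rose, Nqo1 (0.83 ± 0.16) and Gsta4 (0.77 ± 0.17), both low in every library. Lck and Lax1 (1.09 ± 0.21) rose among 2 tested T and NK cell genes and 12 tested lymphoid genes. Ribosome biogenesis (41 tested), oxidative phosphorylation (60), cholesterol and fatty acid synthesis (34), phospholipid synthesis (23), lysosome and autophagy (41), erythroid (9), megakaryocyte (11), B cell (5), and endothelial and stromal genes (4) held 0 called members each by limma. At an adjusted p of 0.0662, Npm1 of the ribosome list stood at 0.44 ± 0.11.

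**Figure D4:**
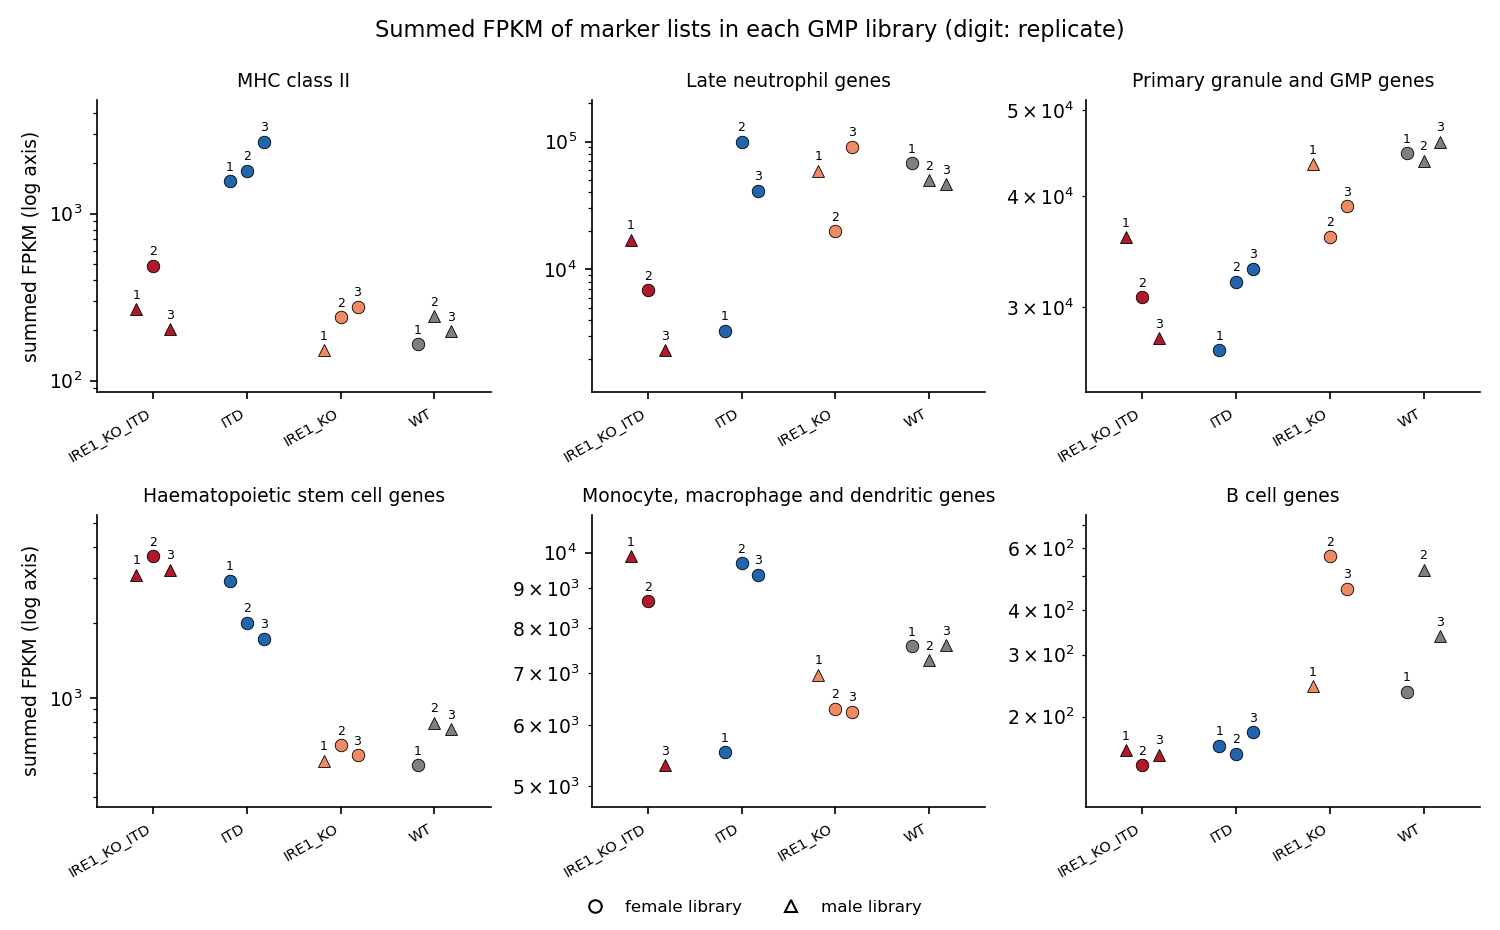
Summed FPKM (y, log axis) of 6 marker lists in each of the 12 GMP libraries by genotype (x), with the replicate number above each point, circles for female and triangles for male libraries. MHC class II separates the 3 IRE1_KO_ITD from the 3 ITD libraries (203 to 486 against 1557 to 2698), while the late neutrophil sum of ITD replicate 1 lies among the IRE1_KO_ITD libraries.

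The IRE1_KO and WT GMP libraries, without Flt3-ITD, were part of the limma fit behind the calls above. Both comparisons therefore share its estimate of variance, and the calls they have in common do not come from separate fits. IRE1_KO GMP against WT GMP gave 60 calls (0.554%), 3 higher (0.0277%) and 57 lower in IRE1_KO. Of the 108 genes lower in IRE1_KO_ITD, 28 were also lower there, 25.9% of the 108 and 49.1% of the 57, and the 3 higher genes Ern1, Sva and Commd10 were all among the 114. Of the XBP1 targets, 22 of 52 fell in IRE1_KO (median -0.67), against 0.526% of all genes, and across the 52 targets the log2 fold changes of the 2 comparisons correlated at 0.77, against 0.04 over all genes, a description across genes, which are not independent. Sec24d stood at 1.76, 1.51 and 0.768 FPKM in IRE1_KO and at 17.4, 9.42 and 11.4 FPKM in WT, near the values with Flt3-ITD. The 60 calls were 40, 45 and 34 without IRE1_KO replicates 1, 2 and 3, and 40, 34 and 27 without WT replicates 1, 2 and 3. Sex is unbalanced here too, with the larger share of male libraries in WT. IRE1_KO replicate 1 and WT replicates 2 and 3 were male, and the others female. With sex as a covariate 41 genes passed, and the part of sex was not tested further. Of the 13 MHC class II genes, 0 passed in IRE1_KO against WT (median 0.12), where H2-Ab1 stood at 15.7, 25.5 and 45.5 FPKM in IRE1_KO and at 13.4, 22.6 and 19.0 FPKM in WT.

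The difference of the effect of the Ern1 genotype between Flt3-ITD and Flt3 wild type GMP was tested itself in the limma fit, and 0 genes passed (0%), with 1429 genes at an unadjusted p under 0.05. The 3 smallest p belonged to Slamf7, Snx22 and Amica1, with differences of -1.81 ± 0.24, -1.77 ± 0.24 and -1.48 ± 0.23 log2 units and limma adjusted p of 0.0814, 0.0814 and 0.111. Slamf7, a receptor of activated immune cells, stood at 0.218, 0.345 and 0.156 FPKM in IRE1_KO_ITD, 2.54, 3.54 and 3.92 FPKM in ITD, 0.343, 0.717 and 0.729 FPKM in IRE1_KO and 0.348, 0.894 and 0.496 FPKM in WT. The 3 ITD libraries were the highest of the 12, which the filter set against IRE1_KO_ITD but not against IRE1_KO and WT. For H2-Ab1 the difference was -3.83 ± 0.63 (limma adjusted p = 0.117) and for Ciita -1.91 ± 0.30 (limma adjusted p = 0.111), so the class II effect is not shown to depend on Flt3-ITD at this number of libraries. For Sec24d and Dnajc3 it was -0.64 ± 0.42 and 0.16 ± 0.16. Without ITD replicate 1, 122 genes passed, and 16 without IRE1_KO_ITD replicate 2.

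**Figure D5:**
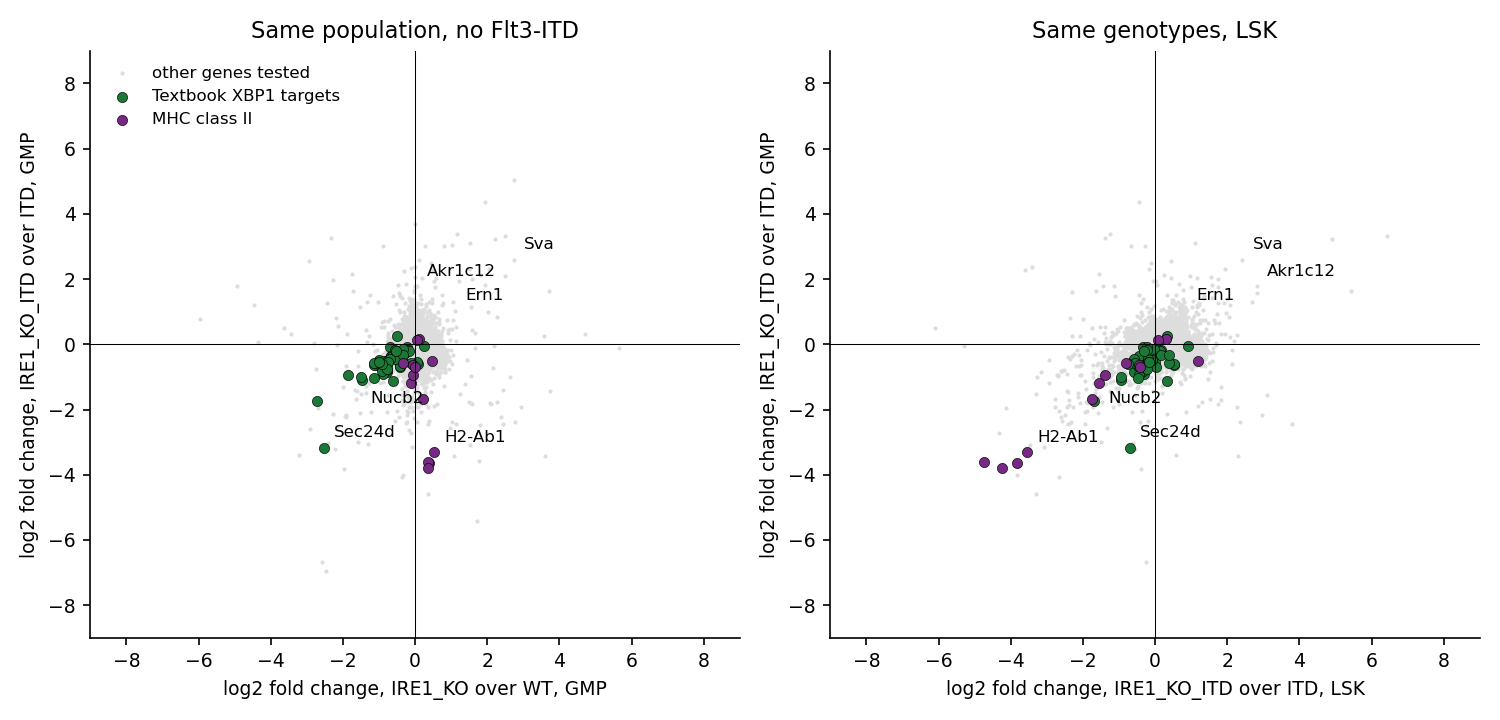
Log2 fold changes of IRE1_KO_ITD over ITD in GMP (y) against those of IRE1_KO over WT in GMP (left, x) and of IRE1_KO_ITD over ITD in LSK (right, x), 1 point per gene. The XBP1 targets lie on the lower left in the left panel, where the MHC class II genes with the lowest y values sit at x values from 0.36 to 0.53; in the right panel the class II genes lie on the lower left.

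In LSK of the same genotypes 2447 of 11294 genes passed (21.7%), 1627 higher (14.4%) and 820 lower, and the count was 1337, 1522 and 1602 without IRE1_KO_ITD replicate 3, ITD replicate 2 and ITD replicate 3. Of the XBP1 targets 12 of 52 fell there and 2 rose (median -0.21), against 7.26% of all genes that fell, and of the MHC class II genes 8 of 13 fell and 1 rose (median -1.37), with H2-Ab1 at 39.8, 36.1 and 51.3 FPKM in IRE1_KO_ITD LSK and 148, 768 and 1083 FPKM in ITD LSK. Of the 91 genes lower in GMP that were tested in LSK, 52 were lower in both (57.1%, and 6.62% of the 785 lower in LSK), and of 110 higher ones 44 (40.0%, and 3.03% of 1454). The difference of the effect between GMP and LSK passed for 744 genes (6.87%), with the log2 fold change higher in GMP than in LSK in 351 (3.24%) and lower in 393 (3.63%). Sec24d fell further in GMP, by 2.47 ± 0.37 log2 units more, and stood in LSK at 2.55, 3.20 and 3.17 FPKM in IRE1_KO_ITD and 7.27, 4.49 and 4.92 FPKM in ITD. Mgat2 and Dnajc3 fell in GMP and rose in LSK, with differences of -1.64 ± 0.24 and -1.15 ± 0.16 (limma adjusted p = 0.00631 each). Dnajc3 stood at 19.4, 22 and 25.0 FPKM in IRE1_KO_ITD GMP and 37.1, 30.9 and 35.6 FPKM in ITD GMP, and at 17.4, 18.3 and 20.4 FPKM in IRE1_KO_ITD LSK and 11.9, 11.8 and 14.4 FPKM in ITD LSK. The count of 744 was 18, 58 and 1564 without IRE1_KO_ITD GMP replicates 1, 2 and 3, and 679, 1006 and 349 without ITD GMP replicates 1, 2 and 3. It was 356, 356 and 24 without the IRE1_KO_ITD LSK replicates in the same order, and 315, 254 and 479 without the ITD LSK replicates.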

How the data were processed

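RNA was measured in 24 libraries, of which the 6 GMP libraries labelled IRE1_KO_ITD and ITD are described, with 6 other GMP and 6 LSK libraries beside them and the remaining 6 LSK libraries only in the fit. Per the submitters' processing notes, STAR and Cufflinks were used on build mm10; the sources used here give no versions, annotation or strand setting. The authors deposited FPKM, 1 value for each gene symbol. The labels' texts conflict on the kit (SMART-Seq v4 with Nextera XT, or TruSeq Stranded). Computed here: log2(FPKM + 1) was fitted with limma 3.58.1 (R 4.3.3, with a trend of variance on mean) over the 12 libraries of a population, and over all 24 for the difference between GMP and LSK, with Benjamini-Hochberg adjustment over all genes that reached 1 FPKM in 3 or more of the 6 libraries compared. The threshold was 0.05. No scaling was added. Sums, figures and promoter searches used Python 3.11.15 with pandas 2.3.3, numpy 2.4.6 and matplotlib 3.10.9. The procedure was run on simulated libraries with independent normal noise and, for each gene, the same spread in all groups. They held no sex imbalance and no outlying library, so that run cannot speak to these features of the data.

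The libraries and the 37 gene lists (1210 of 1216 entries matched, 8 by another name of the gene) were chosen with earlier results of these data known, and the lists are described by counts and medians without a set test. Named were Ern1, Xbp1, Flt3, Kit, up to 15 genes at each end of the log2 fold changes (adjusted p under 0.05, 1 log2 unit or more, no overlap, a higher mean of 5 FPKM or more), as many as 5 called members of each list with 2 or more called, the called ones and the 2 most abundant members of the other lists, and the genes of smallest p in the tests of a difference. Only part of the most abundant members is printed. Gene coordinates are from RefSeq, GRCm38.p6, the assembly of mm10. Alternatives were a pseudocount of 0.1, no filter, quantile and median-ratio scaling, the replicate number as a block, only the groups compared, sex as a covariate, no trend, each library left out, and, added after the data were seen, female libraries only.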

Additional observations from a re-analysis of the deposited data

Results flagged for a closer look

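The effect of the Ern1 genotype within Flt3-ITD differed between GMP and LSK by a test of the difference itself in 744 of 10831 genes (limma, adjusted p under 0.05). The 6 genes of smallest p with a mean of at least 5 FPKM had differences, GMP effect minus LSK effect, of -2.47 in Sec24d, -1.64 in Mgat2, -1.35 in Rnf26, -1.30 in Naglu, -1.15 in Dnajc3 and -0.98 in Klhl36. Mgat2 stood at 31.5, 42.3 and 46.2 FPKM in IRE1_KO_ITD GMP and 88.1, 70.7 and 63.9 FPKM in ITD GMP, and at 43.1, 49.6 and 58.3 FPKM in IRE1_KO_ITD LSK and 23.5, 31.6 and 33.5 FPKM in ITD LSK. Rnf26 stood at 22.4, 24.1 and 29.3 FPKM in IRE1_KO_ITD GMP and 43.4, 32.3 and 34.8 FPKM in ITD GMP, and at 37.0, 31.1 and 35.0 FPKM in IRE1_KO_ITD LSK and 14.7, 20.3 and 22.5 FPKM in ITD LSK. Naglu, a lysosomal enzyme gene, and Klhl36 did not pass in GMP (-0.27 ± 0.15 and -0.17 ± 0.11) and rose in LSK (by 1.03 and 0.81 log2 units). The 3 ITD libraries of each population were female and 2 of 3 IRE1_KO_ITD libraries male, so sex and genotype are unbalanced alike in both. A sex term shared by both populations therefore cancels in this difference and cannot move its estimates. With sex as a covariate 679 genes passed, a count that for this reason says nothing about sex, whose part was not tested.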

How the results depend on the processing

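The 222 calls in IRE1_KO_ITD against ITD GMP were 138 with a pseudocount of 0.1, 186 without the filter, 263 with quantile and 253 with median-ratio scaling, 231 without the trend, 95 with the replicate number as a block, 12 in the fit of only the groups compared, 21 with sex as a covariate and 0 in the female libraries (475 at an unadjusted p under 0.05, with 1 IRE1_KO_ITD library and limma, so that the lone library is assumed to vary like the other groups). Median-ratio scaling moved the share of higher genes to 37.9%, against 51.4% in the reported fit, and the block moved it to 37.9% too. With 1 library left out the count ran from 31 to 812. The XBP1 targets called, 19, were 29 with median-ratio scaling, 2 with only the groups compared, 5 with sex, 0 in the female libraries and 5 to 20 with 1 library left out. The MHC class II genes called, 7, were 0, 1 and 0 with only the groups compared, with sex and in the female libraries, and 2 to 9 with 1 library left out. In IRE1_KO against WT GMP the 60 calls were 93 with median-ratio scaling, 37 with the block, 10 in the female libraries and 27 to 45 with 1 library left out. In LSK the 2447 calls were 445 in the female libraries and 1337 to 2329 with 1 library left out. The difference between Flt3-ITD and Flt3 wild type passed for 3 genes without the filter, 1 in the female libraries and 0 to 122 with 1 library left out. The difference between GMP and LSK passed for 337 genes without the filter, 1 with only the groups compared, 0 in the female libraries and 18 to 1564 with 1 library left out. Same-numbered IRE1_KO_ITD and ITD libraries had deviations from their group means that correlated at -0.434, 0.116 and -0.312, and the numbers were read as names; the highest correlation, 0.4985, was between IRE1_KO_ITD replicate 3 and ITD replicate 1. Of the 222 called genes, chosen for their difference in these same libraries, 0 changed sign under the 15 alternatives. Signs turned in uncalled genes: Elane to 0.54 and Mpo to 0.77 with quantile scaling, Bax to -0.020, Fdps to -0.027 and Ifitm2 to -0.0021 with median-ratio scaling, Fos to 0.11 with sex and 0.47 in the female libraries, and Cd34 to 0.032 and Ctsz to 0.0014 in the female libraries. With 1 library left out the log2 fold changes ran from -0.037 to 0.19 in Bax, -0.16 to 0.037 in Bid, -0.049 to 0.048 in Cd34, -0.059 to 0.068 in Cd37, -0.21 to 0.041 in Ctsz, -0.16 to 0.086 in Elane, -0.082 to 0.16 in Fdps, -1.11 to 0.74 in Fos, -0.0043 to 0.15 in Ifitm2, -0.15 to 0.060 in Mpo, -0.0008 to 0.63 in Myc and -0.092 to 0.45 in Shmt2. The cause of these moves was not tested. Read depth is unknown beyond its ratios, and 3 libraries a group limit the precision.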
